A study of Mus musculus with 12 samples.

Results

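Oxidative phosphorylation genes encode the respiratory chain and the ATP synthase, and they were followed here through the immune cells of the neonatal mouse meninges, the membranes that cover the brain. The genes were chosen by symbol: every row of the expression matrices that starts with mt-Nd, mt-Co, mt-Cyt or mt-Atp, and every row that starts with Nduf, Uqcr, Atp5, Sdha, Sdhb, Sdhc, Sdhd or Cox4 to Cox8. The rule found 109 of 28694 gene rows, 13 encoded by mitochondrial DNA and 96 encoded in the nucleus, and the 2 sets were treated apart throughout. At least 1 UMI (unique molecular identifier, one captured RNA molecule) was counted for 107 of them. Cox7b2 and Cox8c had no UMI in any library, and Cox8b had 6 in all.

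The mice were C57Bl/6j pups at postnatal day 4. One group was naive, and the other had undergone hypoxia-ischemia (HI) 6 h before, which models birth injury by cutting the brain's oxygen and blood flow. Each of the 4 gene expression libraries, naive 1, naive 2, HI 1 and HI 2, pooled 12 pups, 6 male and 6 female, and was made with a droplet kit that reads the 5′ end of each RNA. No sham-operated pups are among these samples, so effects of the procedure cannot be told apart from those of HI. Each run held 1 naive and 1 HI pool, but no label ties a library's number to a run, and p-values between groups measure only the spread between these pooled libraries.

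The respiratory chain sits in the inner mitochondrial membrane. Complexes I (NADH dehydrogenase) and II (succinate dehydrogenase) pass electrons to ubiquinone, complex III (the cytochrome bc1 complex) passes them on to cytochrome c, and complex IV (cytochrome c oxidase) hands them to oxygen. Complexes I, III and IV pump protons as they do so, and complex V, the ATP synthase, uses the proton gradient to make ATP. The genes for complexes I, III, IV and V are split between the nuclear and the mitochondrial genome, while complex II is wholly nuclear. Mitochondrial DNA is transcribed as long precursors that are cut into separate RNAs. Nuclear subunit genes are transcribed one by one, and nuclear respiratory factor 1 (NRF1), ETS-family factors such as GABPA, and YY1 are known regulators of many of them. Macrophages and microglia are known for changing their balance of glycolysis and respiration when activated.

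The 96 nuclear genes comprised 7 core and 29 accessory subunits of complex I with 7 of its assembly factors, 4 subunits of complex II with 4 assembly factors, 8 genes of complex III, 19 of complex IV (Ndufa4 and its relative Ndufa4l2 counted here), the supercomplex factor Cox7a2l, and 15 genes of complex V with 2 related genes, Atp5s and Atp5sl. The mitochondrial genes were 7 subunits of complex I, cytochrome b of complex III, 3 subunits of complex IV and 2 of complex V. Coordinates were found in RefSeq's GRCm38.p6 annotation for 106 of the 109. Of the 93 nuclear genes among these, 16 overlapped another gene counted in the matrices, such as Cox4i2 with Bcl2l1, Cox6a2 with Itgad and Ndufa4l2 with Shmt2. Whether the counting used strand is not given in the sources used here, so reads of such overlapping genes may be shared.

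The libraries held 4213 to 6421 cell barcodes and 51986763 to 68543046 UMIs. After removal of the highest doublet scores 4071 to 6091 cells remained per library, with a median of 9536 to 11097 UMIs per cell. Any pair of libraries shared 29 to 55 barcodes, at most 1.07% of the smaller library. Cells were clustered without the 109 genes, without any other mitochondrial gene and without ribosomal protein genes, so that the measured genes did not define the classes. The classes stand for cells that resemble a type by its markers. They were border-associated macrophages (BAM, which live in the brain's coverings; 12791 cells), microglia (1797), non-classical monocytes (1257), classical monocytes (312), dendritic cells (279), mature neutrophils (253) and B cells (197). Clusters left without a name recur below under their numbers, mainly cluster 10, led by Gpnmb and Spp1 (597 cells), and cluster 25, led by a mix of T and NK cell genes such as Cd3d and Nkg7 (149 cells). All markers fixed for these 7 named types were detected in their own class. The 14 BAM markers summed to 25062 to 25784 UMIs per 1000000 (CPM) in BAM and to 1995 to 2508 in microglia. The 12 microglial markers summed to 22560 to 27992 CPM in microglia and to 2622 to 3049 in BAM.

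Promoters of 5 nuclear genes, 3 widely expressed and 2 restricted ones described further on, are shown as examples with and without matches to motifs of the known regulators. Each is the stretch of 250 bases before the gene's start in RefSeq's GRCm38.p6 table, read 5′ to 3′ on the gene's strand. Capitals mark the letters of 3 motifs searched on both strands: the NRF1 consensus, CCGGAAG (ETS) and AAGATGGCG (YY1). Cox6a1 lies at chr5:115348959-115349208 on the minus strand, Cox6b1 at chr7:30626115-30626364 (minus), Sdhd at chr9:50603850-50604099 (minus), Cox7a1 at chr7:30183921-30184170 (plus) and Cox6b2 at chr7:4753095-4753344 (minus).
Cox6a1: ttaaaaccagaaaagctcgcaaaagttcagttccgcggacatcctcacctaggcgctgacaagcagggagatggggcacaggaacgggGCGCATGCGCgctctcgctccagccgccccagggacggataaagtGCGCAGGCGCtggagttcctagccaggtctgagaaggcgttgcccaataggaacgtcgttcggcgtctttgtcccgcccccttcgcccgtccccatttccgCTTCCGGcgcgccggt
Cox6b1: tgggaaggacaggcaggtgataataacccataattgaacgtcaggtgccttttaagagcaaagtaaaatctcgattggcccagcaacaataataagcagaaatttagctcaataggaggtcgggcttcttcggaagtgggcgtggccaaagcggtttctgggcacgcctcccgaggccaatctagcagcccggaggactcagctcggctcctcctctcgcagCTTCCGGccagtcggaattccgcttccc
Sdhd: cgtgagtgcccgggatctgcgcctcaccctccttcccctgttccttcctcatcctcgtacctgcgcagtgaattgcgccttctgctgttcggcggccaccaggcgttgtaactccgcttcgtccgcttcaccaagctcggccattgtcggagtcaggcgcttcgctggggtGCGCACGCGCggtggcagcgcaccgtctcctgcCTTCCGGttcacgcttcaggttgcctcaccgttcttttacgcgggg
Cox7a1: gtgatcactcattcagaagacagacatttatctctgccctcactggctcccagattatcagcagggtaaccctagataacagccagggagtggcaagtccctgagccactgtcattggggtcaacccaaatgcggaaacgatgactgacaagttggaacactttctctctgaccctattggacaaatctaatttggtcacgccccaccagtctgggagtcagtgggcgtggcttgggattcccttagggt
Cox6b2: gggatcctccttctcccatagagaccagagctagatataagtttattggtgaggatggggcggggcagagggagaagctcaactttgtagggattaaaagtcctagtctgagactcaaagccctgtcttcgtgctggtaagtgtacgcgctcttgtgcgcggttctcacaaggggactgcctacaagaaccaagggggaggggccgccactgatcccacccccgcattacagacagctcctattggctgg
The common isoform genes Cox6a1 and Cox6b1 and the complex II anchor gene Sdhd held NRF1 or ETS matches within this stretch. The restricted isoform genes Cox7a1 and Cox6b2 held none of the 3, which says only that these letters are absent from this window. The examples were picked for their matches. The widely expressed Atp5b, Atp5d and Atp5g1 of complex V held none of the 3 either, so the motifs do not separate common from restricted subunits. Of the 96 nuclear genes, 77 were in the promoter table, with 82 windows of 300 bases that reach 50 bases past the start. The NRF1 consensus was in 26.8% of these windows and in 4.60% of all 32851 windows of the table. The ETS letters were in 24.4% against 8.86%, and the YY1 letters in 8.54% against 1.40%. Letters of other elements were closer to the background. GGGCGG (SP1) was in 45.1% against 35.7%, TATAAA in 11% against 13.6%, and the hypoxia element core ACGTG in 23.2% against 19.6%. The only overlap of 2 of these motifs in the windows was of ETS and SP1 letters in Ndufs3. These are matches of letters and not measured binding sites.

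Cell classes differed far more in the mitochondrial share of their RNA than in the nuclear share. The 13 mitochondrial genes together took 2.63% ± 0.108 (SD, n = 4 libraries) of all UMIs in BAM, 2.63% ± 0.0472 in microglia and 3.38% ± 0.204 in B cells. Monocytes and dendritic cells were lower, at 1.56% ± 0.0971 in non-classical monocytes, 1.65% ± 0.0668 in classical monocytes and 1.76% ± 0.0886 in dendritic cells. Mature neutrophils were lowest of the tested classes, with 0.992%, 0.576%, 0.549% and 0.402% in naive 1, naive 2, HI 1 and HI 2. The plot of both shares by class shows that the monocyte and BAM ranges did not overlap: the highest library of non-classical monocytes reached 1.69% and the lowest of BAM 2.53%.

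The 96 nuclear genes took 2.35% ± 0.0281 of UMIs in BAM, 2.16% ± 0.104 in microglia, 2.54% ± 0.0468 in non-classical monocytes and 2.60% ± 0.0605 in classical monocytes. Monocytes thus stood below BAM in mitochondrial RNA and above BAM in nuclear RNA in each of the 4 libraries. The ratio of mitochondrial to nuclear UMIs was 1.06 to 1.17 in BAM and 0.569 to 0.681 in non-classical monocytes. Mature neutrophils were low in both, with a nuclear share of 1.01% ± 0.328. Ribosomal protein genes took 27.7% to 30.3% of UMIs in B cells and 16.7% to 17.9% in BAM, and shares of a total move with such genes. A score over the genes gets no test, and the tests below are gene by gene.

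**Figure D1:**
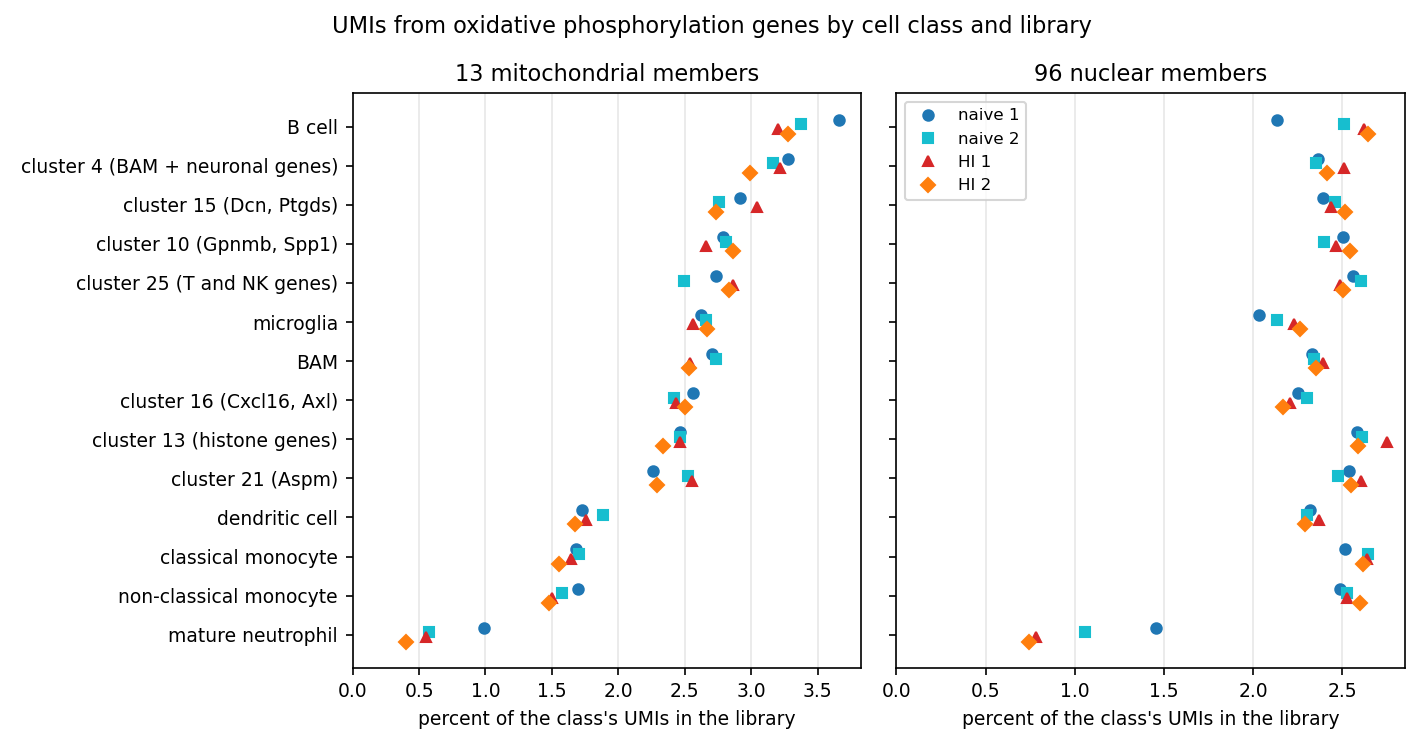
Percent of all UMIs that came from the 13 mitochondrial genes and from the 96 nuclear genes, for each cell class, with 1 point per library. In BAM, microglia, monocytes, dendritic cells and B cells the mitochondrial share ran from 1.48% to 3.66% and the nuclear share from 2.03% to 2.65%. Mature neutrophils were lower in both, at 0.402% to 0.992% and 0.74% to 1.46%.

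Within the mitochondrial set, complex I and complex IV genes took different parts in different cells. The 7 mt-Nd genes of complex I made up 31.2% to 32.1% of the mitochondrial UMIs in microglia and 25.5% to 27.9% in BAM. In non-classical monocytes they made up 22.6% to 24.6% and in classical monocytes 22.3% to 23.7%. The ratio of mt-Co to mt-Nd UMIs was accordingly lowest in cluster 10 (1.15 to 1.28) and microglia (1.24 to 1.30) among the 9 classes compared here, intermediate in BAM (1.63 to 1.92), and above 2 in both kinds of monocyte (2.02 to 2.36). Mature neutrophils spread over 1.56 to 4.91 and had the fewest cells in naive 1, 22.

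The gene-by-gene comparison with BAM used the UMI sums of both classes in all 4 libraries, with the library as a term, in edgeR's quasi-likelihood test with Benjamini-Hochberg adjustment over all genes tested and a threshold of 0.05. In microglia, 6 of 13 mitochondrial genes were higher than in BAM and 4 were lower, against 35.7% higher and 35.6% lower among all 11928 genes tested. Of the higher 6, 5 encode complex I subunits. mt-Nd1, the subunit next to the ubiquinone site, had 2438, 2342, 2344 and 2542 CPM in microglia of naive 1, naive 2, HI 1 and HI 2, and 2229, 2110, 1923 and 1820 in BAM (log2 difference 0.21, adjusted p = 0.00188). All 4 microglial values lay above all 4 BAM values. The other higher genes were mt-Nd2, mt-Nd3, mt-Nd4l, mt-Nd5 and mt-Cytb, with log2 differences of 0.12 to 0.24. All 3 complex IV genes were lower. mt-Co1, the catalytic subunit of complex IV, had 4047, 4178, 3816 and 4046 CPM in microglia against 4982, 5222, 4836 and 5316 in BAM (log2 difference -0.39, SE 0.0299, adjusted p = 4.66e-08). mt-Nd6, the only one of the 13 encoded on the opposite strand, was the 4th lower gene (-0.33), and mt-Nd4, mt-Atp6 and mt-Atp8 did not pass the test.

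Non-classical monocytes had all 13 mitochondrial genes lower than BAM, against 39.8% lower among all 11740 genes. The 7 complex I genes had a median log2 difference of -0.89 and the 3 complex IV genes one of -0.51. mt-Nd4l, a small membrane subunit of complex I, had 1259, 1111, 1042 and 1025 CPM in these monocytes against 2560, 2610, 2313 and 2154 in BAM. mt-Nd6 differed most (-1.12, SE 0.104, adjusted p = 6.92e-08) and mt-Co2, which takes electrons from cytochrome c, least (-0.36). Classical monocytes and dendritic cells each had 12 of 13 lower, against 23.3% and 25.2% lower among all genes, and none higher. In classical monocytes mt-Nd2, a membrane subunit of complex I, had 523, 544, 505 and 472 CPM against 1222, 1182, 1036 and 990 in BAM (log2 difference -0.996, adjusted p = 3.64e-06), followed by mt-Nd1 (-0.96) and mt-Nd3 (-0.79). In dendritic cells mt-Nd2 (-0.70), mt-Nd1 (-0.66), mt-Nd4l (-0.55) and mt-Nd6 (-0.52) were lower. Mature neutrophils had all 13 lower, against 28.9% of all genes, with a complex I median of -1.46 that was -2.44 without TMM. B cells had 8 of 13 higher and none lower, against 25.8% higher among all genes. mt-Nd5, a proton-pumping subunit of complex I, had 1015, 856, 636 and 809 CPM in B cells against 505, 492, 495 and 478 in BAM. The B cell count was 5 without naive 2 or HI 1 and 2 in naive libraries alone. Cluster 10 had 10 of 13 higher and mt-Co1 lower (-0.15), against 28% higher among all genes. The lower gene count of dendritic cells was 7 without naive 1, and in cluster 25, with 2 of 13 lower, it ran from 0 to 4 when libraries were left out.

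The nuclear genes went against the mitochondrial ones in some classes and along with them in others. In non-classical monocytes 48 of 90 nuclear genes were higher than in BAM and 19 lower, against 32% higher among all genes, while every mitochondrial gene was lower. Classical monocytes had 43 of 91 higher and 9 lower, against 21% higher among all genes. Dendritic cells had 37 of 91 higher and 6 lower, against 21.3% higher. In cluster 10 both sets were mostly higher, with 61 of 91 nuclear genes higher and 6 lower, against 28% higher and 30.8% lower. Microglia had 19 of 92 higher and 48 lower, against 35.7% and 35.6%, and B cells were split, 24 higher and 25 lower of 90, against 25.8% and 36.8%. In mature neutrophils every mitochondrial gene was lower. Of 90 nuclear genes there 2 were higher and 35 lower, against 15.8% and 28.9% of all genes, and most passed in neither direction. Cluster 25 had 16 higher and 10 lower of 90, against 21.9% higher and 28.1% lower among all genes.

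These splits moved with the scaling. With summed UMIs alone as the scale, without TMM normalization, the median of all genes moved from -0.14 to -0.26 in non-classical monocytes, from -0.11 to -0.23 in classical monocytes, from -0.10 to -0.33 in dendritic cells, from -0.26 to -0.15 in B cells, from -0.05 to -0.22 in cluster 10 and from -0.79 to -1.74 in mature neutrophils. On that scale the higher and lower nuclear genes were 36 and 27 in non-classical monocytes, 35 and 17 in classical monocytes, 15 and 26 in dendritic cells, 30 and 17 in B cells, and 36 and 18 in cluster 10. The nuclear majority thus changed sides in dendritic cells and, from a near-even split, in B cells. The shares of all genes called without TMM are not given, here or below, so counts on that scale have no background beside them. In microglia it was 25 higher and 43 lower. For the mitochondrial set the direction held on both scales in monocytes, dendritic cells and neutrophils, where no gene was higher. Without TMM cluster 10 had 8 mitochondrial genes higher and 2 lower, and B cells had 10 higher and none lower.

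By complex, most genes of complexes III, IV and V were higher in non-classical monocytes than in BAM, and no test compared the complexes with each other. Over all genes 32% were higher and 39.8% lower with TMM. Complex V genes, the ATP synthase, were higher in 11 of 15 cases and lower in 1 (median log2 difference 0.29), and 8 and 3 without TMM. Complex IV genes were higher in 10 of 13 and lower in 1 (6 and 1 without TMM), and complex III genes higher in 5 of 8 and lower in none (4 and 1 without TMM). Core subunits of complex I were higher in 4 of 7 and lower in 2 (3 and 2 without TMM). Accessory subunits of complex I were mixed, 13 higher and 8 lower of 29, with a median of 0.10 that became -0.02 without TMM. Among the largest differences were the assembly factors Sdhaf1 of complex II (0.97) and Ndufaf3 of complex I (0.95) and the accessory subunits Ndufa1 (0.84), Ndufa11 (0.83) and Ndufa6 (0.83). Ndufa6 had 462, 485, 542 and 509 CPM against 314, 301, 296 and 307 in BAM, with all 4 libraries higher. The largest lower differences were those of Atp5s (-2.42), Cox7a1 (-2.18), the complex I assembly factor Ndufaf2 (-1.64) and Sdhc (-1.09).

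In classical monocytes 11 of 15 complex V genes were higher and none lower (8 and 1 without TMM), and 5 of 8 complex III genes were higher and none lower (5 and 1 without TMM). Over all genes 21% were higher and 23.3% lower with TMM. The accessory subunits of complex I were higher in 14 of 29 cases and lower in 2 (11 and 7 without TMM), and its core subunits higher in 4 of 7 and lower in 1 (4 and 2 without TMM). Sdhb, the iron-sulfur subunit of complex II, had 329, 287, 290 and 313 CPM against 177, 176, 186 and 183 in BAM (log2 difference 0.87, SE 0.0887, adjusted p = 1.71e-05). The Rieske iron-sulfur protein gene Uqcrfs1 of complex III (0.80), Ndufaf3 (0.75) and the stator gene Atp5f1 of complex V (0.74) were higher as well. Ndufaf2 (-1.22) and Atp5s (-1.14, adjusted p = 0.0309) were lower. The call on Atp5s was lost without any 1 of the 4 libraries, with naive libraries alone and with DESeq2. The 10 mature neutrophil markers, all detected, summed to 2202, 3963, 11180 and 12160 CPM in classical monocytes of naive 1, naive 2, HI 1 and HI 2. The part of neutrophil RNA in the classical monocyte values was not tested.

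Microglia differed from BAM in unlike ways within complex I. The background over all genes was 35.7% higher and 35.6% lower. Of the 29 accessory subunits 19 were lower and 4 higher, with a median log2 difference of -0.30, whereas none of the 7 assembly factors was lower and 4 were higher (median 0.38). The 7 core subunits, which carry the electrons, were higher in 4 cases and lower in 2. Groups of 7 genes are small, and no group was tested against that background. Ndufa7 (-0.59), Ndufa6 (-0.60) and the core subunit Ndufs7 (-0.56) led the lower genes, and the assembly factors Ndufaf6 (0.61), Ndufaf4 (0.59) and Ndufaf7 (0.58) the higher ones. The core subunits Ndufs1 (0.42) and Ndufv1 (0.36), which hold iron-sulfur clusters and the NADH site, were higher too. Complex IV was lower in 11 of 15 genes, among them Cox7a2 (-0.50), Cox8a (-0.45), Cox6b1 (-0.35), Cox6a1 (-0.24), Ndufa4 (-0.19) and Cox4i1 (-0.18). The majority within each of these groups kept its side without TMM, with 16 accessory and 11 complex IV genes lower.

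Cluster 10 was higher in most complexes, against 28% higher and 30.8% lower among all genes with TMM. Complex V was higher in 14 of 15 genes (8 higher and 1 lower without TMM), complex III in 7 of 8 (4 without TMM) and the complex I core in 6 of 7 (3 without TMM). Atp5g1, 1 of 3 genes for the membrane ring of the ATP synthase, had 420, 367, 481 and 415 CPM there against 266, 256, 310 and 274 in BAM (log2 difference 0.78, SE 0.0558, adjusted p = 2.1e-08). Ndufaf6 (0.95), Ndufaf4 (0.92) and Ndufa1 (0.90) followed. Ndufa6 (-0.45), the supercomplex factor Cox7a2l (-0.39), Ndufb11 (-0.25) and Ndufa7 (-0.18) were lower, Ndufa7 with its call lost without naive 1 and without HI 1.

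B cells were lower in 7 of 13 complex IV genes and higher in none, and higher in 7 of 15 complex V genes and lower in 1. Over all genes 25.8% were higher and 36.8% lower with TMM. Without TMM 2 complex IV genes were higher and 5 lower. Atp5b, the catalytic beta subunit of the ATP synthase, had 601, 886, 903 and 959 CPM in B cells against 438, 433, 468 and 454 in BAM (log2 difference 0.79), and Cox4i1 had 866, 812, 831 and 804 against 1237, 1260, 1176 and 1254 (-0.67). Uqcrc2, a core subunit of complex III, was higher in B cells (0.91) and also in cluster 25 (0.85), non-classical monocytes (0.71), cluster 10 (0.50) and microglia (0.37). Atp5sl (1.27), Ndufaf4 (1.16), Ndufaf6 (1.13) and Sdhaf2 (0.95) were the other leading higher genes of B cells. Uqcrb of complex III (-0.78) and Sdhaf4 (-0.72) were lower. Cluster 25 shared lower Uqcrb (-0.92) and Sdhc (-0.97), with lower Ndufb8 (-0.88), Uqcr11 (-0.75) and Ndufs7 (-0.64). Its higher genes were led by Ndufaf5 (1.23), Atp5sl (1.04), Ndufs4 (0.77) and Uqcrh (0.73), and the calls on Ndufaf5 and Atp5sl were lost with naive libraries alone.

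Mature neutrophils were the poorest in nuclear transcripts as well. Atp5g2, another gene of the ATP synthase ring, had 215, 97.6, 76.5 and 33.7 CPM in naive 1, naive 2, HI 1 and HI 2 against 796, 787, 760 and 756 in BAM (log2 difference -2.34, SE 0.323). Ndufa5 (-2.43) and Sdhaf4 (-2.62) were lower in all 4 libraries too. The assembly factor Ndufaf4 was counted once in neutrophils. Sdhaf3 had no UMI among 1731237, which allows up to 1.73 CPM and places it at least 5.73-fold below BAM, at 3 counts over the 4 libraries together. The calls on both were lost with naive libraries alone. Markers of other cells also differed between these libraries. The 14 BAM markers, all detected, summed to 1583, 1996, 731 and 71.4 CPM in mature neutrophils of naive 1, naive 2, HI 1 and HI 2, and the 12 microglial markers, all detected, to 4320, 263, 1057 and 155. The part of these cells' RNA in the neutrophil values was not tested. The nuclear count of 37 differing genes was 77 without TMM, 14 with naive libraries alone and 24 without HI 1.

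Complex II showed that the 4 subunits of one enzyme need not differ together. Sdhc, one of the membrane anchors, lies at chr1:171129157-171150640, overlaps no other counted gene, and was lower than in BAM in 7 of the 8 classes compared. It had 120, 126, 126 and 130 CPM in BAM, 48.8, 62.0, 57.1 and 48.7 in non-classical monocytes (log2 difference -1.09, SE 0.0869, adjusted p = 1.05e-08) and 53.0, 72.0, 74.3 and 70.5 in B cells (-1.0). In microglia it had 102, 102, 95.7 and 108 CPM (-0.35). Cluster 10 was the exception, with 128, 127, 104 and 130 CPM and a difference of 0.13 that did not pass the test. Sdhb in non-classical monocytes went the other way (0.69), with 267, 265, 267 and 275 CPM. Sdha, the flavoprotein that oxidises succinate, was at 105, 108, 104 and 105 there (-0.21), and Sdhd, the other anchor, at 142, 124, 130 and 131 (-0.26).

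**Figure D2:**
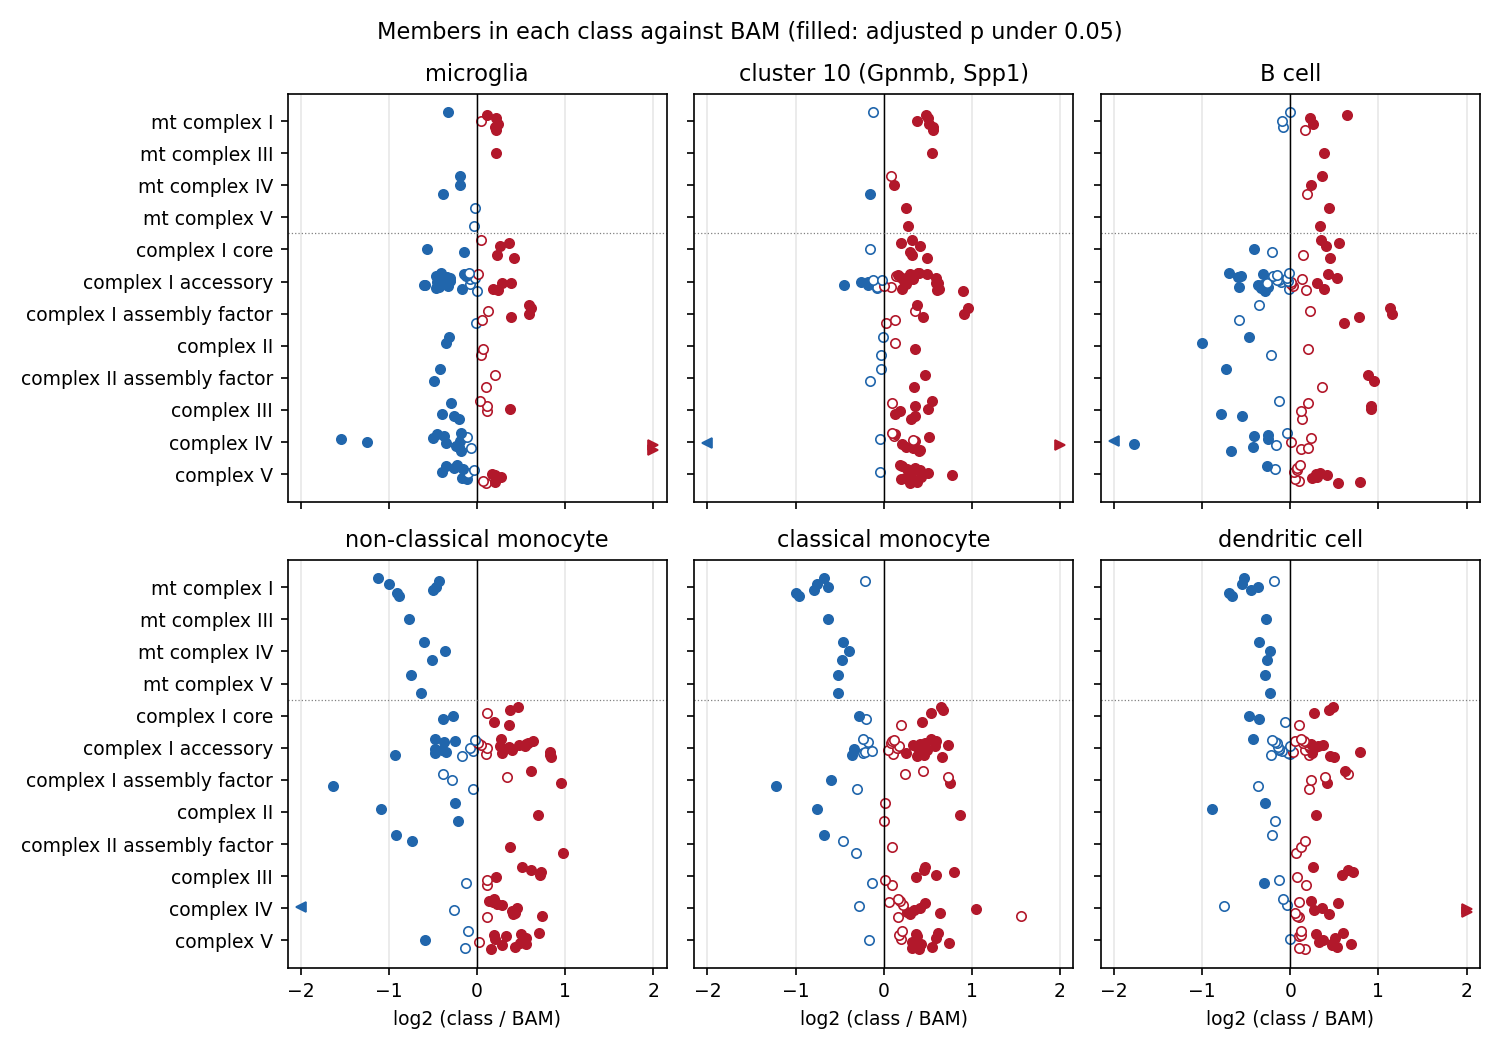
Log2 difference from BAM of each gene, grouped by complex, in microglia, cluster 10, B cells, non-classical monocytes, classical monocytes and dendritic cells. Filled points passed an adjusted p of 0.05, open points did not, and triangles mark values beyond the axis. All 13 mitochondrial genes of non-classical monocytes lie below 0 while most complex V genes lie above it. Cox7a2l, Atp5s and Atp5sl are not drawn.

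Several complex IV subunits have a common isoform and a second one that is known from restricted tissues, and the levels of 4 second isoforms differed between classes. Cox6a2 (chr7:128205435-128206366), known as the heart and muscle form of Cox6a, had 19.2, 34.7, 14 and 31.7 CPM in cluster 10 against 0.628, 0.820, 0.584 and 0.618 in BAM. That is 40.8-fold by the fit (log2 difference 5.35, SE 0.226, adjusted p = 5.92e-11). In microglia it had 2.77, 3.89, 4.48 and 5.85 CPM, 6.19-fold above BAM (2.63, SE 0.265, adjusted p = 7.78e-07). Of the cells of cluster 10, 19.1%, 25.4%, 19.5% and 30.1% held a Cox6a2 UMI. Its common partner Cox6a1 gave far more UMIs, and Cox6a2 made up 3.34% to 7.90% of the 2 genes' UMIs in cluster 10 and 0.833% to 1.63% in microglia. No Cox6a2 UMI was counted in non-classical monocytes, which allows up to 0.377 CPM, nor in B cells, mature neutrophils or cluster 25. Cox6a2 overlaps Itgad, as given above, so reads may be shared, and the part of Itgad in these values was not tested.

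Dendritic cells held 1, 115, 57 and 0 Cox6a2 UMIs in naive 1, naive 2, HI 1 and HI 2, and all came from 8 of the 279 cells. These 8 cells carried the markers listed for plasmacytoid dendritic cells, a type that makes interferon. Ccr9 was detected in 7 of them, Siglech, which is also on the microglial list, in 7, Bst2 in 8, Ly6d in 7, Klk1 in 6, Runx2 in 5 and Pacsin1 in 7. In the other 271 dendritic cells Ly6d and Klk1 were not detected and Ccr9 was found in 7. Of the 11 markers listed for dendritic cells 6 were also detected in the 8 cells: Flt3 in 7, Cd209a in 4, H2-Eb1 in 7, H2-Ab1 in 6, H2-Aa in 7 and Cd74 in 8. Flt3 stood at 252 CPM in them against 87.5 in the other 271, while Cd209a stood at 182 against 1071 and H2-Aa at 3280 against 11530. The other 5, Zbtb46, Clec9a, Xcr1, Ccr7 and Itgae, were at 0 in the 8 cells and were found in 80, 43, 27, 6 and 27 of the 271. The 8 cells were noticed after their values were seen, and the class value of Cox6a2 in dendritic cells rests on them.

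Cox6b2 (chr7:4751792-4753094), known as the testis form of Cox6b, was highest in dendritic cells among the classes tested, with 36.4, 35.6, 44.4 and 55.1 CPM against 10.4, 10.2, 7.44 and 7.34 in BAM (5.66-fold, log2 difference 2.50, SE 0.222, adjusted p = 9.41e-07). It made up 6.48% to 9.98% of the UMIs of Cox6b2 and Cox6b1 in dendritic cells. Basophils, with too few cells for a test (61), were at 68.8 CPM over all libraries on 49 UMIs, and immature neutrophils (141 cells) at 38.0. Classical monocytes were higher than BAM too (1.05, adjusted p = 0.00905), a call lost without naive 2 and without HI 2. Microglia, with 3.81, 3.89, 4.01 and 3.64 CPM, were 2.39-fold below BAM (-1.25), cluster 10 was lower (-2.12), and so were B cells (-1.78).

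Cox7a1 (chr7:30184171-30186030), the muscle form of Cox7a, was at 6.18, 7.94, 5.75 and 6.75 CPM in BAM and was not particular to them. Over the 4 libraries together BAM had 6.70 CPM, cluster 10 had 7.24 and classical monocytes 5.11, the last on 17 UMIs. Cluster 4 had 6.96, cluster 13 5.83, cluster 15 9.98 and cluster 21 9.35. Of all marker lists, these unnamed clusters matched that of BAM best, so they are not clearly other cell types. Microglia had 1.39, 2.05, 3.07 and 3 CPM, 2.91-fold less (log2 difference -1.54, SE 0.208, adjusted p = 1.43e-05), and B cells had 2 UMIs in all 4 libraries. Its share of Cox7a1 and Cox7a2 UMIs was 1.55% to 2.12% in BAM. Cox4i2 (chr2:152753916-152765039), the lung form of Cox4, which is known to be induced by low oxygen, was low everywhere. It reached 1.56, 1.64, 2.59 and 2.06 CPM in microglia against 0.298, 0.283, 0.400 and 0.713 in BAM (log2 difference 2.12, SE 0.341, adjusted p = 7.61e-05), and at most 0.233% of the UMIs of Cox4i1 and Cox4i2 in microglia. Ndufa4l2, which also responds to low oxygen, had 0.123 to 0.428 CPM in BAM and no UMI in microglia, which places microglia at least 2.22-fold lower. At these levels a few UMIs decide a value, and RNA from other cells in the droplets was not measured. Reads of Cox4i2 may also be shared with Bcl2l1, and those of Ndufa4l2 with Shmt2, which they overlap.

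**Figure D3:**
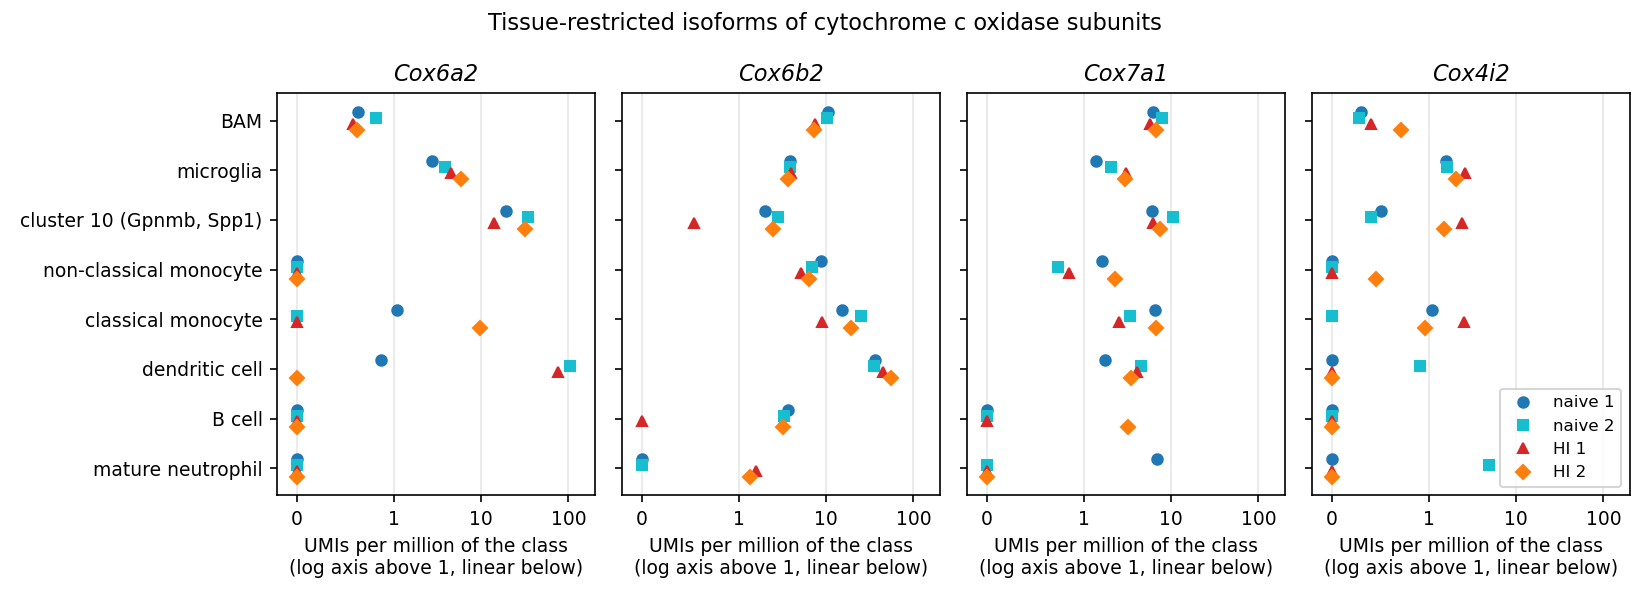
CPM of Cox6a2, Cox6b2, Cox7a1 and Cox4i2 in each cell class, 1 point per library, on an axis that is linear below 1 and logarithmic above. Cox6a2 stands at 14 to 34.7 CPM in cluster 10, and its dendritic cell values range from 0 to 105 CPM. Among the classes drawn Cox6b2 is highest in dendritic cells, at 35.6 to 55.1 CPM.

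The comparison of HI with naive asked which of these genes changed 6 h after the insult. In BAM, 1 of 93 nuclear genes and 0 of 13 mitochondrial genes passed the test, against 3.74% of all 12591 genes (2.32% higher, 1.42% lower). The change was in Cox6b2, which had 10.4 and 10.2 CPM in naive 1 and naive 2 and 7.44 and 7.34 in HI 1 and HI 2. Both HI values lay below both naive values, and the difference was a fall of 1.39-fold (log2 difference -0.48, SE 0.0983, adjusted p = 0.0462 in edgeR). It rested on 315, 362, 242 and 309 UMIs. Its adjusted p was 0.201 without naive 1, 0.232 without naive 2, 0.107 with DESeq2, 0.0666 without dividing clusters and 0.0521 without doublet removal. At an unadjusted p under 0.05 there were 10 nuclear genes and 3 mitochondrial genes. The share of all genes at an unadjusted p is not given, here or below, so such counts cannot be set against the shares above. DESeq2 called no nuclear gene and 2 mitochondrial ones, mt-Nd2 and mt-Nd4l, and the nuclear count was 0 without either naive library, 2 without HI 1 and 5 without HI 2.

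Most nuclear genes of BAM held their level within a narrow margin. The log2 difference lay within 0.2 of 0 for 85 of 93, and the median was 0.04, beside 0.00 over all genes. The share of all genes within 0.2 of 0 is not given, so this margin is not shown to be particular to these genes. Cox4i1 had 1237, 1260, 1176 and 1254 CPM in naive 1, naive 2, HI 1 and HI 2, with the groups overlapping (-0.03, SE 0.064). Atp5a1, the alpha subunit of the ATP synthase, had 370, 369, 379 and 369 (0.02, SE 0.0514), and Uqcrc1, a core subunit of complex III, had 199, 203, 197 and 196 (-0.02). The 4 complex II subunits moved by -0.06 (Sdha), 0.07 (Sdhb), 0.07 (Sdhc) and 0.06 (Sdhd). The oxygen-regulated isoforms did not pass the test either: Cox4i2 had a difference of 0.98 (SE 0.419, adjusted p = 0.239), on 0.283 to 0.713 CPM, and Ndufa4l2 one of -0.19 (SE 0.572). Cox6a2 (-0.27) and Cox7a1 (-0.17) missed it too. The supercomplex factor Cox7a2l had 415, 432, 327 and 400 CPM in BAM, with both HI values lower (-0.21, adjusted p = 0.278).

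The 13 mitochondrial genes of BAM all had values below 0, beside 49.1% of all genes, with a median log2 difference of -0.06 beside 0.00 over all genes, and none passed the test. In 6 of 13 both HI libraries lay below both naive libraries, against 27% of all genes, and in none above, against 25.1%. mt-Nd2 had 1222, 1182, 1036 and 990 CPM (-0.24, SE 0.0561, adjusted p = 0.0638), the nearest to the threshold. mt-Nd1 had 2229, 2110, 1923 and 1820 (-0.21, adjusted p = 0.11), and mt-Nd4l had 2560, 2610, 2313 and 2154 (-0.21, adjusted p = 0.107). The other 3 without overlap were mt-Cytb, mt-Co2 and mt-Co3. mt-Co3 had 3598, 3685, 3295 and 3394 CPM. The others were level or overlapping: mt-Co1 had 4982, 5222, 4836 and 5316 CPM (-0.00053), mt-Atp6 2586, 2740, 2500 and 2673, mt-Nd4 745, 811, 751 and 738, mt-Nd5 505, 492, 495 and 478, and mt-Nd3 211, 235, 222 and 206. mt-Nd6, at 73.4, 64.6, 74.4 and 61.9, and mt-Atp8, at 2065, 1693, 2008 and 1420, differed more within each group than between the groups. Single libraries decided several calls: mt-Nd2 had an adjusted p of 0.037 without HI 1, 0.0433 without HI 2, 0.376 without naive 1 and 0.326 without naive 2, mt-Nd4l one of 0.0461 without HI 1, and mt-Atp8 one of 0.0432 without HI 1. The mt-Nd4l and mt-Nd4 genes overlap, as do mt-Atp8 and mt-Atp6, and each pair shares an RNA, so reads could be split between its members in counting.

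The share of BAM UMIs from the 13 mitochondrial genes was 2.70% and 2.74% in the naive libraries and 2.54% and 2.53% in the HI libraries. Of the clusters that form BAM, 9 were followed one by one, and they changed in size at the same time. Cluster 24, led by Egr2 and Rcan1 (168 cells), and cluster 34, led by Rsad2 and Ifit3 (46 cells), also belong to BAM. They are not among the 9. Cluster 0, led by Hif3a and Fam13a, made up 14.4% and 16.5% of BAM in naive libraries and 27.0% and 30.0% in HI libraries. Cluster 6, led by Ccl12 and Gja1, made up 1.72% and 1.57% and then 19.4% and 12.0%. Within clusters the mitochondrial share of both HI libraries was below that of both naive libraries in 8 of 9. In cluster 0 it was 2.91% and 2.96% in naive and 2.70% and 2.63% in HI, and in cluster 6 it was 2.61% and 2.59% against 2.41% and 2.41%. Cluster 8, led by Timd4, was the exception. mt-Nd1, mt-Nd2, mt-Nd4l, mt-Cytb, mt-Co3 and mt-Atp8 had negative differences in 9 of 9 clusters tested alone. So had the nuclear Cox7a2l, while Cox7b, Cox7c, Ndufa12, Ndufb4, Ndufc1, Ndufs3, Ndufv2 and Uqcrb were positive in 9 of 9. The clusters come from the same 4 libraries, so their signs are not independent. The share of all genes with the same sign in 9 of 9 is not given, so this is not shown to be particular to these genes. Cox6b2 was negative in 8 of 8 clusters in which it could be tested, called in 0 of them. mt-Nd2 and mt-Nd4l were each called in 1 cluster.

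Markers of other cells moved alongside. The 8 neuronal markers, all detected, summed to 25 and 21.9 CPM in naive BAM and to 11.3 and 16 in HI BAM. The 7 endothelial markers, all detected, summed to 198 and 159 CPM and then to 135 and 110. The part of these cells' RNA in the BAM differences was not tested.

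**Figure D4:**
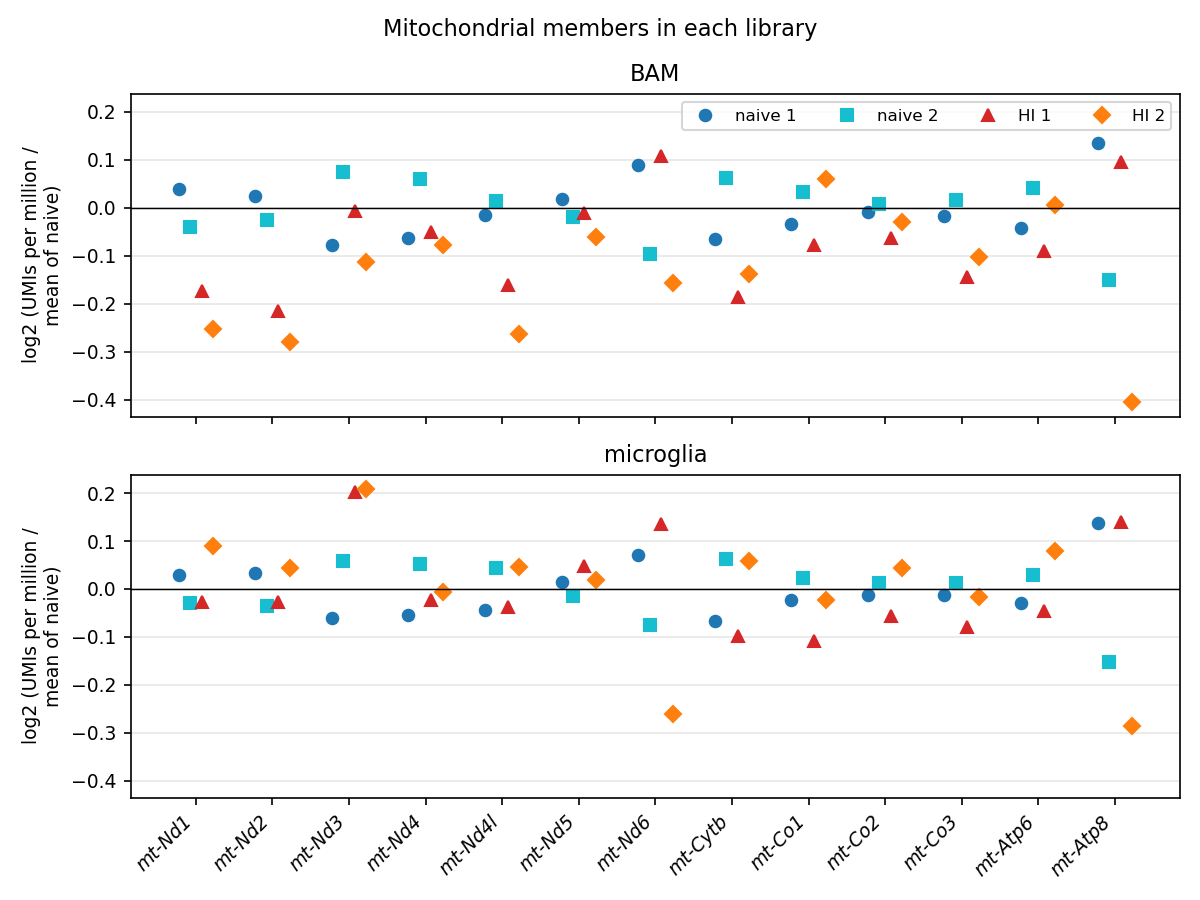
Log2 of each library's CPM over the naive mean for the 13 mitochondrial genes in BAM and in microglia, 1 point per library. In BAM the HI points of mt-Nd1, mt-Nd2, mt-Nd4l, mt-Cytb, mt-Co2 and mt-Co3 lie below both naive points, and in microglia the libraries of the 2 groups mostly overlap. For mt-Atp8 the points separate by library number.

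**Figure D5:**
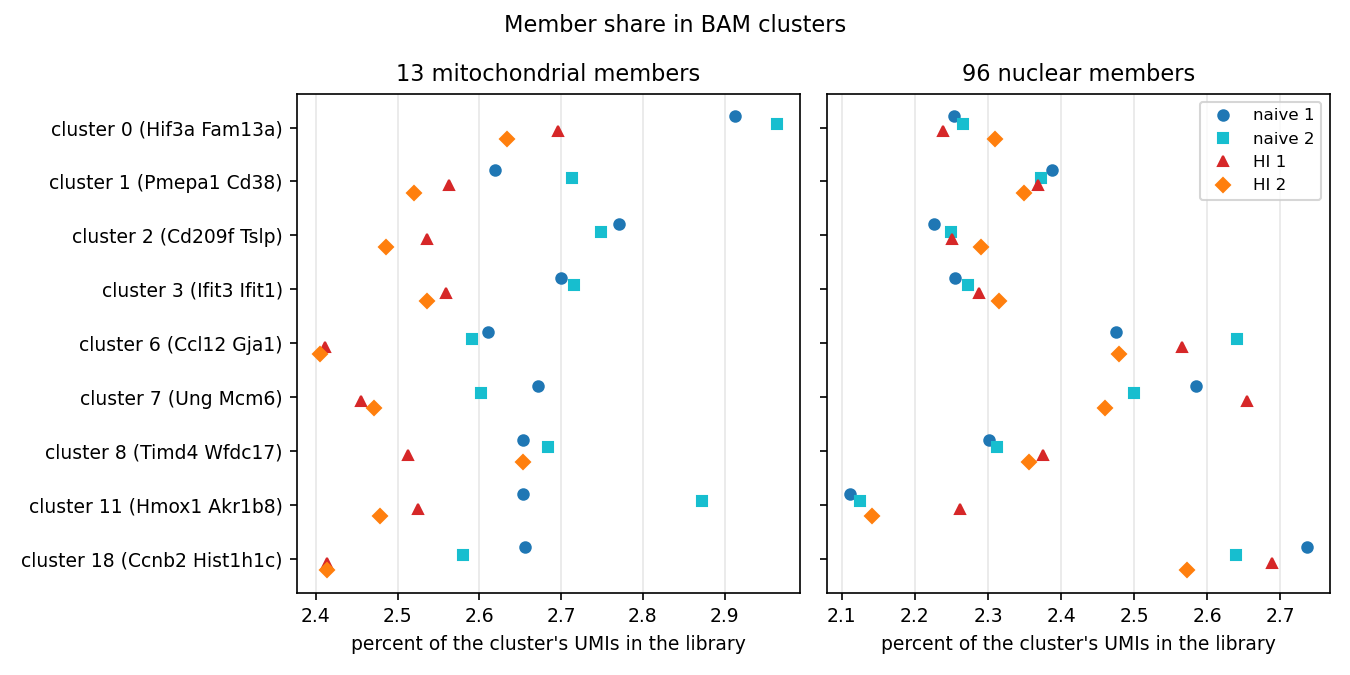
Percent of UMIs from the 13 mitochondrial genes in each of 9 BAM clusters, 1 point per library, on an axis that does not start at 0. Clusters 24 and 34, which also belong to BAM, are not drawn. In 8 of the 9 clusters both HI points lie below both naive points, and cluster 8 is the exception.

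In microglia 2 of 92 nuclear genes passed the test of HI against naive, Atp5g1 and Ndufa12, both higher, against 1.73% higher and 1.71% lower, 3.45% in all, among 10559 genes. Atp5g1 (chr11:96072793-96075694) had 286 and 294 CPM in naive and 387 and 355 in HI microglia (log2 difference 0.35, SE 0.0852, adjusted p = 0.0236 in edgeR). Ndufa12 (chr10:94199035-94221440), an accessory subunit of complex I, had 130 and 144 CPM and then 180 and 169 (0.34, SE 0.0936, adjusted p = 0.0445). In both genes the 2 HI values lay above the 2 naive values. Neither call was firm to the choice of libraries. For Atp5g1 the adjusted p was 0.237 without naive 1, 0.0872 without naive 2 and 0.0609 without HI 1. For Ndufa12 it was 0.42 without naive 1, 0.0701 without HI 1, 0.0584 without TMM and 0.131 with DESeq2. With cells gated on marker UMIs in place of clusters no nuclear gene was called in microglia, and the adjusted p was 0.226 for Atp5g1 and 0.242 for Ndufa12.

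Of the 92 nuclear genes 83 had a positive difference in microglia, beside 50.5% of all genes, with a median of 0.11 beside 0.00 over all genes. An unadjusted p under 0.05 was found for 20, again without a share of all genes to set beside it. Both HI libraries exceeded both naive libraries in 51 of 92, against 23.4% of all genes, and lay below in 8, against 22.2%. Among those higher without overlap were Atp5g3 (0.24, adjusted p = 0.148), Cox7a2 (0.15), Cox8a (0.13), Atp5b (0.13), Uqcrc1 (0.11) and Atp5a1 (0.10), none past the threshold. Atp5g2 (-0.04) and Cox7a2l (-0.21, adjusted p = 0.236) were lower without overlap. Cox4i2 (0.51), Cox6a2 (0.67) and Cox7a1 (0.83) had adjusted p-values of 0.687, 0.358 and 0.393. None of the 13 mitochondrial genes was called in microglia, 1 had an unadjusted p under 0.05, and DESeq2 called none. mt-Nd3 had 238, 258, 286 and 287 CPM (0.20, adjusted p = 0.242). Markers moved in the same libraries. In naive 1, naive 2, HI 1 and HI 2 the 12 microglial markers, all detected, summed to 27992, 26846, 22560 and 23756 CPM in microglia, and the 10 classical monocyte markers, with Ly6c2 at 0, to 8.32, 9.01, 17.2 and 13.1. The 7 choroid plexus markers, with Kl at 0, summed to 6.06, 36.3, 2.83 and 1.90 CPM. Their part in the differences was not tested. The mitochondrial share was 2.62%, 2.66%, 2.56% and 2.67% in naive 1, naive 2, HI 1 and HI 2, with the groups overlapping.

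In non-classical monocytes edgeR and DESeq2 called none of 87 nuclear and none of 13 mitochondrial genes, against 2.01% of all 8473 genes. At an unadjusted p under 0.05 there were 4 nuclear and 3 mitochondrial genes. All 13 mitochondrial differences were below 0, beside 49.2% of all genes, with a median of -0.20, and 8 of 13 had both HI libraries below both naive libraries, against 17.4% of all genes. mt-Co3 had 2283, 2225, 1939 and 2016 CPM there (-0.22, adjusted p = 0.171). The mitochondrial share was 1.69% and 1.58% in naive and 1.5% and 1.48% in HI.

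Among the remaining 11 classes tested, 1 nuclear gene was called, Ndufs3, a core subunit of complex I (chr2:90894627-90904721), in cluster 15. Of all marker lists this cluster matched that of BAM best, while its leading genes, such as Vtn, Ptgds and Dcn, include a listed marker of fibroblasts, Dcn. Ndufs3 had 129 and 144 CPM in naive and 228 and 196 in HI (log2 difference 0.62, SE 0.15, adjusted p = 0.034), against 1.01% of all 6952 genes called. Its adjusted p was 0.345 without naive 1, 0.193 without naive 2, 0.395 without HI 1 and 0.306 with DESeq2. In BAM the same gene had a difference of 0.23 (adjusted p = 0.068). No gene of either kind was called in the other 10. Over all genes, 0.117% were called in B cells, 0.255% in classical monocytes, 0.0136% in dendritic cells, 0.029% in mature neutrophils, 0.0836% in cluster 10 and 0% in cluster 25. In the other unnamed clusters 0.76% (cluster 4), 1.08% (cluster 13), 0.59% (cluster 16) and 1.17% (cluster 21) were called. In B cells 3 nuclear and no mitochondrial genes had an unadjusted p under 0.05, in classical monocytes 1 and 0, in dendritic cells 1 and 0 and in cluster 10 2 and 0, and DESeq2 called none in these classes. All 13 mitochondrial differences in B cells were below 0, beside 50.8% of all genes. The nuclear differences there leaned the other way, with 69 of 86 above 0, beside 49.2% of all genes, and a median of 0.20. Markers of other cells differed between the mature neutrophil libraries, with BAM markers lower in both HI libraries, as given above. There 52 of 70 nuclear genes had both HI libraries below both naive libraries, but so did 50.3% of all genes tested in that class, and edgeR called none, with 4 at an unadjusted p under 0.05.

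The difference of the HI response between classes was tested as an interaction with a term for each library. Between BAM and microglia no nuclear or mitochondrial gene passed the test in edgeR or DESeq2, against 1.12% of all 11928 genes. At an unadjusted p under 0.05 there were 15 nuclear and 4 mitochondrial genes, and mt-Nd3 came nearest (0.27 more in microglia, SE 0.0685, adjusted p = 0.0696). Between BAM and non-classical monocytes none passed either, against 2.12% of all 11740 genes, with 3 nuclear genes and no mitochondrial gene at an unadjusted p under 0.05. No single gene was therefore shown to respond differently in BAM than in these classes.

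Several genes that act beside the respiratory chain passed the test in HI. The shares of all genes called in BAM were 2.32% higher and 1.42% lower, and in microglia 1.73% and 1.71%. Among 7 hypoxia genes of the mitochondrion that are not subunits, 4 rose in BAM. Pdk1, the kinase that closes pyruvate's entry to the citric acid cycle, went from 28.8 and 29.9 CPM to 44.8 and 45.9 (log2 difference 0.63, adjusted p = 0.00424). Higd1a, a small protein of the respiratory chain known to be induced by hypoxia, stood at 72.6 and 68.0 CPM in HI 1 and HI 2, above both naive libraries (0.50). The mitophagy receptor Bnip3 (0.46) and the oxygen sensor Egln3 (3.51, from 0.331 and 0.452 to 2.28 and 6.56 CPM) rose as well. In microglia Higd1a rose (0.36) and Egln3 fell by 1.39 on the log2 scale, from 4.85 and 6.76 to 2.12 and 2.21 CPM.

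Of 12 genes of pyruvate entry in BAM, Pdk1 and Mpc1, a subunit of the mitochondrial pyruvate carrier (0.45), rose and none fell. Of 19 genes of electron carriers and ATP export, Ucp2, an inner membrane carrier, rose in BAM from 977 and 1025 to 1443 and 1490 CPM (0.56), and Cycs, cytochrome c itself, rose in microglia from 156 and 154 to 240 and 208 (0.53, adjusted p = 0.00186). Myc rose in both, by 1.06 in BAM and 1.17 in microglia. Of 13 citric acid cycle genes none passed in BAM and 1, Idh3a, rose in microglia (0.52). Of 77 mitochondrial ribosome genes Mrpl52 rose in BAM (0.34) and Mrpl15, Mrpl12 and Mrps18b rose in microglia, and none fell in either. In BAM 1 of 77 is no larger than the share of all genes called higher. In BAM no gene passed among 20 assembly genes of complexes III to V or among 14 genes of mitochondrial genome expression. All these lists were chosen with earlier results of these data known, and the counts are a description.

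Between classes the same lists spread more widely. Citric acid cycle genes were higher than in BAM in 9 of 13 cases in microglia, against 35.7% of all genes (10 without TMM), and in 10 of 13 in cluster 10, against 28% (6 without TMM), with Fh1 alone lower in each. Suclg2, a subunit of succinyl-CoA ligase, differed most in both (1.18 in microglia and 1.15 in cluster 10). Mitochondrial ribosome genes were higher in 48 of 77 cases and lower in 7 in B cells, against 25.8% and 36.8% of all genes (51 and 5 without TMM). In mature neutrophils they were lower in 49 of 77 and higher in 1, against 28.9% and 15.8% (72 and 1 without TMM). In microglia 7 of 14 genes of mitochondrial genome expression were higher and none lower, against 35.7% and 35.6% (8 and 0 without TMM), and in B cells 8 were higher and 1 lower (8 and 0 without TMM).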

How the data were processed

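The authors deposited UMI counts (whole numbers) of each gene in each cell barcode, as a separate matrix for each of the 4 gene expression libraries, without normalization. Per the submitters' processing notes, the tools were Cell Ranger 2.2.0 and Seurat, and the builds named were mm10 and GRCm38. Receptor contig files were not used here. Barcodes were kept whatever their mitochondrial share, since that share is a measure here. Scrublet (scanpy 1.11.5) scores were ranked within each library and the top 0.8% per 1000 barcodes removed, 142 to 330 cells, because the automatic thresholds called 1 to 3. Leiden clustering (leidenalg 0.10.2) used 2000 variable genes, 40 components, 20 neighbours, resolution 1.5 and seed 1, without integration. A name needed 3 or more of its markers, each seen in 20% of cells or more. Cluster 32 was kept out of BAM after its values were seen.

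UMIs were summed per library and class, where every library held 20 cells or more, which left 14 classes. CPM is UMIs per 1000000 of that sum, not scaled by length, so levels are not compared between genes. edgeR 4.0.16 filtered genes (filterByExpr), scaled libraries (TMM) and gave 2-sided quasi-likelihood tests. SE is the absolute log2 difference over the square root of F. Limits at 0 UMIs use 3 counts and cover counting error only. Genes named are those past 0.05 with all libraries on the same side, by size, up to 5 each way per contrast with BAM, besides the 13 mitochondrial genes and a fixed list of isoforms and core subunits. The genes, lists and tests were chosen with earlier results of these data known. The script was tested on simulated counts. DESeq2 1.42.0, other scalings, filters, cell sets and leaving out libraries were the alternatives.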

Additional observations from a re-analysis of the deposited data

How the results depend on the processing

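Of 476 recomputed counts and shares, 409 stayed within their margin and 67 moved, and of 959 recomputed differences of named genes 895 kept their direction and side of the threshold, 34 lost their call, 14 gained one and 16 changed sign. The cause of these changes was not tested. For HI against naive in BAM, the nuclear count of 1 was 0 with DESeq2, 5 without the filter on low counts, 0 without doublet removal, 0 without dividing clusters, 0 as the median over single clusters, and 0 to 5 when libraries were left out. The mitochondrial count of 0 was 2 with DESeq2, 1 without TMM, 3 without the filter, 1 without dividing clusters and 0 to 3 when libraries were left out. In microglia the nuclear count of 2 was 1 with DESeq2, 1 without TMM, 0 with gated cells and 0 to 2 when libraries were left out. Leaving out libraries took counts of 0 to at most 4 nuclear and 2 mitochondrial genes in mature neutrophils, 1 and 1 in B cells, 3 nuclear in cluster 10, 2 mitochondrial in cluster 25 and 1 mitochondrial in the other 5 clusters, whose nuclear count of 1 ran from 0 to 2 and was 0 with DESeq2 and 2 without the filter. In BAM, mt-Co1 changed sign without the filter (0.0017), with at most 10% mitochondrial UMIs (0.00036), without doublet removal (0.0055) and over left-out libraries (-0.0937 to 0.0844). So did mt-Atp8 (-0.379 to 0.0791), mt-Atp6 (-0.11 to 0.0308), mt-Nd3 (-0.13 to 0.0228), mt-Nd4 (-0.12 to 0.0023) and mt-Nd6 (-0.13 to 0.0936) over left-out libraries, and mt-Nd6 also without doublet removal (0.0090), with gated cells (0.0054) and as the median over clusters (0.0228). Without HI 2 the counts over all genes in BAM were 617 higher and 587 lower, against 43 and 23 without naive 2.

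Against BAM, mitochondrial counts were 5 with naive libraries alone in microglia, 7 to 12 over left-out libraries in dendritic cells, 7 with naive libraries alone in mature neutrophils, and 2 with naive libraries alone, 5 without the filter and 5 to 8 over left-out libraries in B cells. In cluster 25 they were 5 without TMM, 5 without the filter and 0 to 4 over left-out libraries. Nuclear counts were 14 with naive libraries alone, 77 without TMM and 24 to 41 over left-out libraries in mature neutrophils, and 16 with naive libraries alone in cluster 25. With ribosomal protein genes left out of the total, the mitochondrial and nuclear shares were 3.17% and 2.84% in BAM, 3.11% and 2.56% in microglia, 1.82% and 2.96% in non-classical monocytes, 1.97% and 3.12% in classical monocytes, 2.41% and 3.18% in dendritic cells, 4.77% and 3.50% in B cells, 3.28% and 2.92% in cluster 10, and 3.98% and 3.69% in cluster 25.

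With the library number as a replicate block, 6 nuclear and 3 mitochondrial genes (mt-Nd1, mt-Nd2 and mt-Nd4l) were called in BAM, 904 higher and 846 lower over all genes, 4 mitochondrial genes in non-classical monocytes, and 1 nuclear gene each in mature neutrophils and cluster 10. The nuclear count in microglia was 3. With 2 pairs the numbers cannot be shown to pair the samples: deviations of same-numbered libraries correlated at 0.11 in BAM, 0.06 in microglia, 0.08 in non-classical monocytes and 0.38 in mature neutrophils.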

Other observations

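mt-Atp8 separated the libraries by their number and not by HI. In all 14 classes tested both libraries numbered 1 lay above both libraries numbered 2. In BAM the values were 2065 and 2008 CPM in naive 1 and HI 1 against 1693 and 1420 in naive 2 and HI 2, and in microglia they were 2041 and 2042 against 1668 and 1521. Of 11431 genes with at least 100 UMIs in BAM, 7 did so in at least 12 of 14 classes, 0.0612%. The others were Chchd2, Il10rb, Rnaset2a, AY036118, Malat1 and Rpl9-ps6, and Plod3 was the only gene with the opposite order in at least 12. mt-Atp6, whose gene overlaps that of mt-Atp8, had the opposite order in 7 classes, and Atp5c1 of complex V in 8. This pattern was noticed after the values were seen. No label ties the number to a run.

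Neurons, described only because they numbered 55 cells, had the highest mean nuclear share among the classes with at least 50 cells. The neuron share was 2.94%, 3.10%, 4.43% and 3.04% of UMIs in naive 1, naive 2, HI 1 and HI 2, on 30, 10, 4 and 11 cells. The ranges of single libraries overlapped, since pre-B cells (71 cells) reached up to 3.17%. Immature neutrophils, 141 cells, had a mitochondrial share of 0.473%, 0.813%, 0.694% and 0.401%.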
